A study of Danio rerio with 18 samples.

Results

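Cocktail 3 is 1 of 8 mixtures of guide RNAs (gRNAs) that were tested with RfxCas13d in zebrafish embryos, and it is described here by its 2 RNA-seq libraries out of 18. Those libraries were chosen by their sample titles. They were set against the 14 libraries of Cocktails 1, 2 and 4 to 8, with the levels of the called genes in the 2 RfxCas13d control libraries beside them. All groups were whole embryos at 4 h post-fertilisation (hpf) and all carried RfxCas13d. Each cocktail held 25 gRNAs, with an amount of 10 pg stated per embryo. The control is labelled by RfxCas13d alone. The sources used here do not say what else its embryos received, which strain was used or which genes each gRNA matches. No gene below is therefore named as one that Cocktail 3 was meant to hit. Nor do they say whether the 2 libraries of a group stem from different clutches or injections, so each p-value reflects the spread between these libraries, part or all of which may be technical.

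RfxCas13d is a CRISPR nuclease that binds a gRNA and cuts RNA that pairs with it, leaving the genome as it is. In a zebrafish embryo at this stage, mRNAs laid down by the mother are being cleared while transcription from the embryo's own genome has begun. A mixture of gRNAs can therefore act on mRNAs of both origins. The stated purpose was to see how far ex vivo computational models of gRNA activity hold for mRNA depletion in vivo. Setting 1 cocktail against the others asks which mRNAs were low with that mixture beyond what the cocktails have in common, and the control shows on which side of an embryo without a cocktail each gene then lies.

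The count tables held 3583249 gene reads in Cocktail 3 replicate 1 and 3165319 in replicate 2, within the range of 2544027 to 4864939 over the 18 libraries. Of 32520 genes, 14514 had enough counts to be tested. Levels are given as CPM, the gene's count relative to the scaled total of gene reads in its library, and changes as log2 ratios ± SE. Unmapped reads were 27.1% and 26.7% of the reads in the tables of Cocktail 3, against 30.1% ± 7.43 (SD, n = 14) in the other cocktails and 10.1% and 10.8% in the control. The difference from the other cocktails in this share did not pass the test (-3.24 percentage points, two-sided exact permutation p = 0.542 over 120 splits, of which the smallest possible is 0.00833). The splits treat libraries as independent, though they come in groups of 2, so this p may be too small. The part of the unmapped share in the results below was not tested.

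Both Cocktail 3 libraries lay further apart than those of most groups. Of 11240 genes with at least 5 CPM, 17.6% differed by at least 2-fold between the 2 libraries of Cocktail 3. This share was 17.5% in Cocktail 1, between 3.29% and 9.2% in the remaining cocktails, and 4.72% in the control. The gap in Cocktail 3 moved with gene length, as read from the ratio of deposited counts to deposited TPM for 11844 genes. Replicate 2 minus replicate 1 had medians of 0.59, 0.19, -0.20 and -0.62 log2 units in 4 classes of equal size, ordered from short to long genes. Relative to the mean of the other cocktails, the longest class minus the shortest was -1.06 log2 units in Cocktail 3 replicate 2 and 0.11 in replicate 1. Among the 14 other cocktail libraries the same difference ran from -0.51 in Cocktail 1 replicate 2 to 0.24, and it was 0.02 and 0.13 in the control libraries. A library of the compared set also stood apart: in Cocktail 1 replicate 1 the median of 24 early zygotic genes was -5.35 log2 units relative to the mean of the 14 libraries of the other cocktails. The calls that were lost without each of these 3 libraries are named after the counts of called genes.

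**Figure D1:**
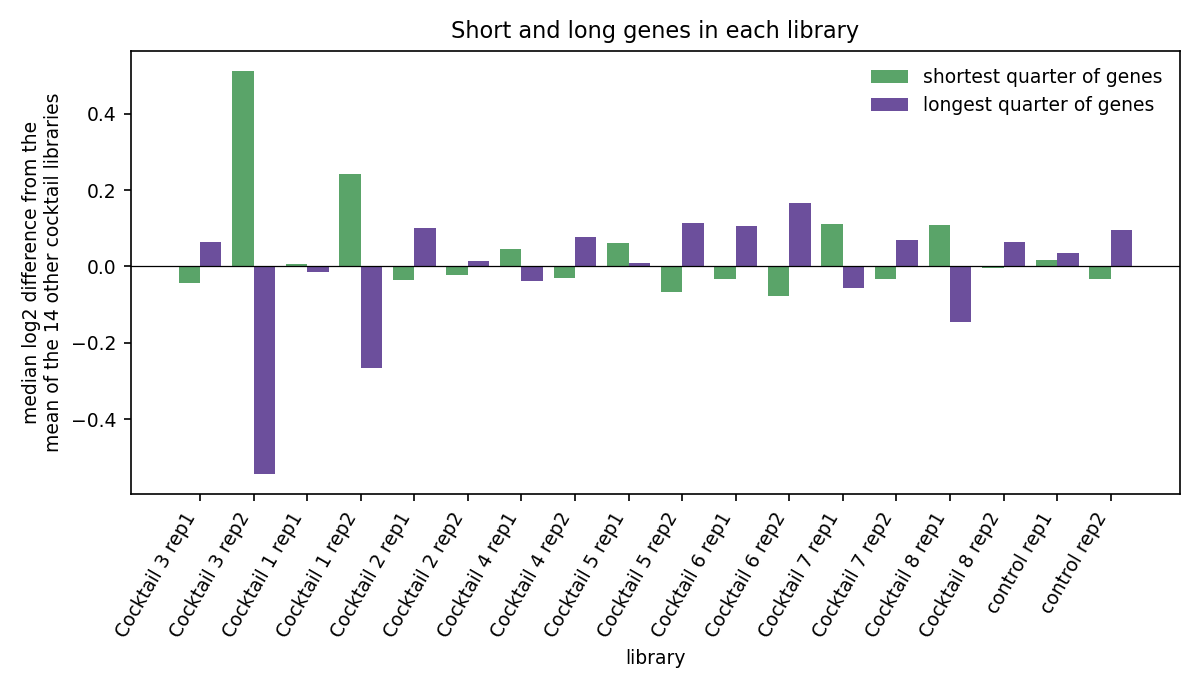
Bars show, for each library, the median log2 difference from the mean of the 14 libraries of the other cocktails over the shortest (green) and the longest (purple) of 4 gene length classes. Cocktail 3 replicate 2 has 0.51 for short and -0.54 for long genes, Cocktail 3 replicate 1 has -0.04 and 0.06, and Cocktail 1 replicate 2 has 0.24 and -0.27.

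Against the 7 other cocktails, 25 genes were lower in Cocktail 3, which is 0.172% of the genes tested, and 13 were higher, which is 0.0896%. A gene was called at a change of at least 2-fold and an adjusted p under 0.05 by edgeR's quasi-likelihood test with Benjamini-Hochberg adjustment over all genes tested. The lower genes include enzymes, RNA-binding proteins and chromatin regulators, and 8 of them had a log2 change of -2 or below. In 17 of the 25 lower genes both Cocktail 3 libraries lay below all 14 other cocktail libraries. Over all genes tested, 130 did so, or 0.896%. In 3 of the 13 higher genes both lay above all 14, as did 128 of all genes tested, or 0.882%. The called genes were picked on these same libraries, so their larger shares are partly built in. The median log2 change over all genes tested was 0.03. At an unadjusted p under 0.05 there were 812 lower genes (5.59%) and 1015 higher genes (6.99%).

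The number of called genes depended on which libraries were in the fit. Without Cocktail 3 replicate 1, 381 genes were lower and 171 higher, and without Cocktail 3 replicate 2 the counts were 14 and 3. Of the 25 lower genes, 22 and 12 were called in these fits, in that order, and of the 13 higher genes 11 and 2. Without Cocktail 1 replicate 1 the counts were 108 and 47, and without Cocktail 1 replicate 2 they were 43 and 88. In these fits 25 and 24 of the lower genes and all 13 of the higher genes were called.

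The genes whose calls were lost differed between these fits. Without Cocktail 3 replicate 2, 13 lower genes were not called: setdb1b, kdm2ba, ptbp1a, erf, epn2, cep131, tgm2b, wnk4b, atxn2l, h2az2b, CABZ01065076.1, BX855614.4 and si:ch211-212k18.4. Of the higher genes, 11 were not called without it, which left rbm25b and bzw1a. Without Cocktail 3 replicate 1, the lower genes h2af1al, CABZ01065076.1 and BX855614.4 and the higher genes rbm25b and soul3 were not called. Without Cocktail 1 replicate 2 the call of h2az2b was lost, and without Cocktail 1 replicate 1 none of the 38 was.

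Under each of the 34 alternative settings run, 3 of the 25 lower genes were called, namely abhd17c, stk26 and suz12a. A further 8 lost their call in 1 setting, in which the 14 other libraries shared 1 mean regardless of their cocktail: bckdk, tarbp2, tatdn2, peli2, ppp4r2a, papolg, mier1a and lsm14aa.

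The largest change was that of bckdk (ENSDARG00000016904), the kinase that switches off the branched-chain keto acid dehydrogenase in mitochondria. It had 24.5 and 33.8 CPM in Cocktail 3, against a lowest value of 18.6, a median of 327 and a highest value of 406 CPM in the other cocktails, and 542 and 551 CPM in the control. Cocktail 2 was as low, with 42.8 and 18.6 CPM, and the 6 remaining cocktails had between 185 and 406 CPM. Its log2 change was -2.97 ± 0.25 against the other cocktails (adjusted p = 3.41e-07) and -4.23 ± 0.29 against the control. Against Cocktail 2 alone it was -0.08 ± 0.28. The gene was thus low in 2 cocktails, and Cocktail 3 was 1 of them.

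The next largest change was that of CABZ01065076.1, a gene with no described product whose values stand with the low-level genes (log2 change -2.49 ± 0.49). Enzymes of other kinds had changes of about that size. The depalmitoylase gene abhd17c (ENSDARG00000058452) had 26.9 and 13.8 CPM in Cocktail 3, against 53.1, 121 and 144 CPM (lowest, median and highest) in the other cocktails and 78.3 and 88.0 CPM in the control. Its log2 change was -2.47 ± 0.24 against the other cocktails (adjusted p = 2.50e-06) and -2.02 ± 0.27 against the control. Both Cocktail 3 libraries lay below every other library, and Cocktail 1, at a mean of 61.3 CPM, was the next lowest group. The gene tatdn2, of the TatD family of nucleases, had 22.9 and 53.5 CPM in Cocktail 3, against 75.5, 248 and 304 CPM in the other cocktails and 232 and 284 CPM in the control. The change was -2.48 ± 0.29 (adjusted p = 6.62e-05), again with no overlap between Cocktail 3 and any other group.

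Of the other lower genes, ppp4r2a, stk26 and peli2 encode signalling proteins. The gene ppp4r2a encodes a regulatory subunit of protein phosphatase 4, which acts in DNA repair and other nuclear processes. It had 86.8 and 65.0 CPM in Cocktail 3, against 124, 394 and 513 CPM in the other cocktails and 421 and 455 CPM in the control (log2 change -2.16 ± 0.19, adjusted p = 4.80e-07). For stk26, a kinase of the STE20 family, the values were 37.3 and 32.2 CPM in Cocktail 3, against 80.8, 147 and 191 CPM in the other cocktails and 168 and 164 CPM in the control (-2.01 ± 0.18, adjusted p = 5.02e-07). For peli2, a Pellino ubiquitin ligase of Toll and interleukin-1 receptor signalling, they were 15.7 and 13.5 CPM in Cocktail 3, against 17.3, 63.9 and 115 CPM in the other cocktails and 66.3 and 70.19 CPM in the control (-2.05 ± 0.30, adjusted p = 5.79e-04). In all 3 genes both Cocktail 3 libraries were the lowest of the 18. In each of them Cocktail 1 was the next lowest group, with means of 129, 86.3 and 28.8 CPM.

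The lower genes tarbp2, papolg, ptbp1a, lsm14aa and atxn2l encode proteins that bind or modify RNA, and they are described together by a grouping made after the calls were known. The related list of mRNA decay and small RNA genes had none of its 37 tested members called. At 0.172% lower and 0.0896% higher over all genes tested, that count is near the background. The lowest adjusted p of the 25 was that of tarbp2, which encodes the double-stranded RNA-binding partner of Dicer. It had 28.8 and 34.8 CPM in Cocktail 3, against 67.6, 201 and 248 CPM in the other cocktails and 308 and 306 CPM in the control (log2 change -2.45 ± 0.18, adjusted p = 7.60e-08; -3.28 ± 0.21 against the control). Cocktail 2 was the next lowest group with a mean of 68.6 CPM, and no Cocktail 3 library overlapped any other. The poly(A) polymerase gene papolg had 61.5 and 43.0 CPM in Cocktail 3, against 21.1, 295 and 320 CPM in the other cocktails and 369 and 388 CPM in the control (-1.88 ± 0.22, adjusted p = 3.04e-05). Here Cocktail 1 was lower still, with a mean of 32.3 CPM.

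The splicing repressor ptbp1a had 22.4 and 13.1 CPM in Cocktail 3, against 13.5, 66.4 and 83.8 CPM in the other cocktails and 302 and 266 CPM in the control. Its log2 change was -1.49 ± 0.26 against the other cocktails (adjusted p = 0.00541) and -3.99 ± 0.32 against the control, while the other cocktails lay at -2.50 ± 0.18 against the control. Cocktails 1 and 4 had means near that of Cocktail 3, at 21.5 and 20.3 CPM. The P-body gene lsm14aa had 82.6 and 89.6 CPM in Cocktail 3, against 102, 201 and 253 CPM in the other cocktails and 241 and 253 CPM in the control (-1.13 ± 0.18, adjusted p = 0.00170). The stress granule gene atxn2l was at 91.9 and 48.6 CPM in Cocktail 3, against 88.6, 160 and 197 CPM in the other cocktails and 172 and 210 CPM in the control (-1.09 ± 0.23, adjusted p = 0.0368). It overlapped the other cocktails and kept its call in 13 of 34 settings.

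Of the gene lists read here, the chromatin modifiers were the only one with a call against the other cocktails. With so few of all genes called (0.172% lower, 0.0896% higher), a count of 0 in another list is near the background. Of 43 tested chromatin modifiers 3 were lower and none higher, with a list median of -0.24 log2 units, beside 0.172% lower, 0.0896% higher and a median of 0.03 over all genes tested. At an unadjusted p under 0.05 the list had 9 lower and 0 higher genes, beside 5.59% and 6.99% of all genes tested. The list was chosen with earlier results of these data known. The 3 lower genes were suz12a, setdb1b and kdm2ba, of which suz12a and kdm2ba both act with Polycomb complexes. The gene suz12a encodes a core subunit of Polycomb repressive complex 2, which methylates lysine 27 of histone H3. It had 69.3 and 88.6 CPM in Cocktail 3, against 180, 235 and 316 CPM in the other cocktails and 169 and 136 CPM in the control. Its log2 change was -1.57 ± 0.17 against the other cocktails (adjusted p = 1.67e-05). Against the control it was -0.95 ± 0.20 (adjusted p = 0.00177), which is under 2-fold, since the other cocktails themselves lay above the control at 0.62 ± 0.16. All 14 libraries of the other cocktails exceeded both controls and both Cocktail 3 libraries lay below them. The call on this gene held against each of the 7 cocktails taken singly.

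Another of these, setdb1b, encodes a methyltransferase for lysine 9 of histone H3. It had 43.7 and 27.9 CPM in Cocktail 3, against 57.9, 120 and 160 CPM in the other cocktails and 138 and 198 CPM in the control (log2 change -1.65 ± 0.23, adjusted p = 4.69e-04). Its call was lost without Cocktail 3 replicate 2 (adjusted p = 0.0534). The last of them, kdm2ba, encodes a demethylase that brings a Polycomb complex to CpG islands. It was at 11.5 and 6.56 CPM in Cocktail 3, against 10.2, 34.8 and 65.8 CPM in the other cocktails and 116 and 86.8 CPM in the control (-1.76 ± 0.28, adjusted p = 0.00197). Cocktail 4, with a mean of 11.1 CPM, was about as low. The chromatin list is long in its transcripts, with a median length of 2.44 relative to the median gene, and its medians in the Cocktail 3 libraries were -0.03 in replicate 1 and -0.50 in replicate 2. With a correction for length, added after the data were seen, the list median was 0.01 over the 39 members with a length, and 3 members were lower. The number of calls in this list also changed with which Cocktail 3 library was in the fit.

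Outside that list, 3 further lower genes act on chromatin or transcription. The corepressor gene mier1a, whose product binds histone deacetylases, had 30.4 and 39.7 CPM in Cocktail 3, against 50.3, 136 and 180 CPM in the other cocktails and 133 and 120 CPM in the control (log2 change -1.82 ± 0.18, adjusted p = 3.95e-06). The gene for the ETS repressor erf had 81.2 and 41.0 CPM in Cocktail 3, against 85.8, 180 and 271 CPM in the other cocktails and 273 and 272 CPM in the control (-1.42 ± 0.21, adjusted p = 6.42e-04). The gene h2az2b, for the histone variant H2A.Z, had 230 and 190 CPM in Cocktail 3, against 295, 446 and 625 CPM in the other cocktails and 680 and 704 CPM in the control (-1.08 ± 0.20, adjusted p = 0.0110). Cocktail 3 overlapped no other group in any of them. The calls of erf and h2az2b were lost without Cocktail 3 replicate 2 and that of h2az2b also without Cocktail 1 replicate 2, while mier1a passed in each of these fits.

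Another histone gene went the opposite way against the control. The gene h2af1al, of the histone H2A family, had 357 and 802 CPM in Cocktail 3, against 995, 1181 and 1554 CPM in the other cocktails and 253 and 232 CPM in the control. It was lower than in the other cocktails (log2 change -1.05 ± 0.21, adjusted p = 0.0198) and higher than in the control (1.26 ± 0.26, adjusted p = 0.00116). The other cocktails lay at 2.31 ± 0.23 against the control. The 2 Cocktail 3 libraries differed by more than 2-fold, and both lay between the control and the lowest of the other cocktail libraries. Without Cocktail 3 replicate 1 the call was lost.

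The remaining lower genes had smaller changes or lower levels. The epsin gene epn2, which acts in endocytosis, was at 14.4 and 10.2 CPM in Cocktail 3, against 16.7, 34.6 and 61.2 CPM in the other cocktails and 101 and 78.0 CPM in the control (log2 change -1.41 ± 0.29, adjusted p = 0.0276). The centriolar satellite gene cep131 had 14.4 and 10.2 CPM in Cocktail 3, against 21.98, 29.9 and 48.6 CPM in the other cocktails and 34.1 and 28.6 CPM in the control (-1.31 ± 0.29, adjusted p = 0.0498). In epn2 and cep131 the Cocktail 3 libraries lay below all others. The transglutaminase gene tgm2b had 38.1 and 29.2 CPM in Cocktail 3, against 23.5, 107 and 197 CPM in the other cocktails and 146 and 129 CPM in the control (-1.22 ± 0.23, adjusted p = 0.0131). The kinase gene wnk4b had 38.6 and 28.6 CPM in Cocktail 3, against 22.2, 91.0 and 117 CPM in the other cocktails and 194 and 188 CPM in the control (-1.13 ± 0.25, adjusted p = 0.0454). The ranges of tgm2b and wnk4b overlapped those of the other cocktails. Of these 4, cep131 kept its call in 9 of 34 settings and wnk4b in 11, against 25 for epn2 and 29 for tgm2b. The 3 other called genes have no described product: CABZ01065076.1 (1.33 and 2.95 CPM in Cocktail 3, against a median of 20.6 CPM in the other cocktails and 15.2 and 27.1 CPM in the control), BX855614.4 (4.00 and 3.94 CPM, against a median of 16.6 CPM in the other cocktails and 15.4 and 19.6 CPM in the control) and si:ch211-212k18.4 (37.6 and 20.02 CPM, against a median of 66.2 CPM in the other cocktails and 136 and 167 CPM in the control). The call of BX855614.4 held in 12 of 34 settings, that of si:ch211-212k18.4 in 17 and that of CABZ01065076.1 in 28. CABZ01065076.1 was also low in Cocktails 1, 2 and 4, at means of 2.79, 3.60 and 2.05 CPM.

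**Figure D2:**
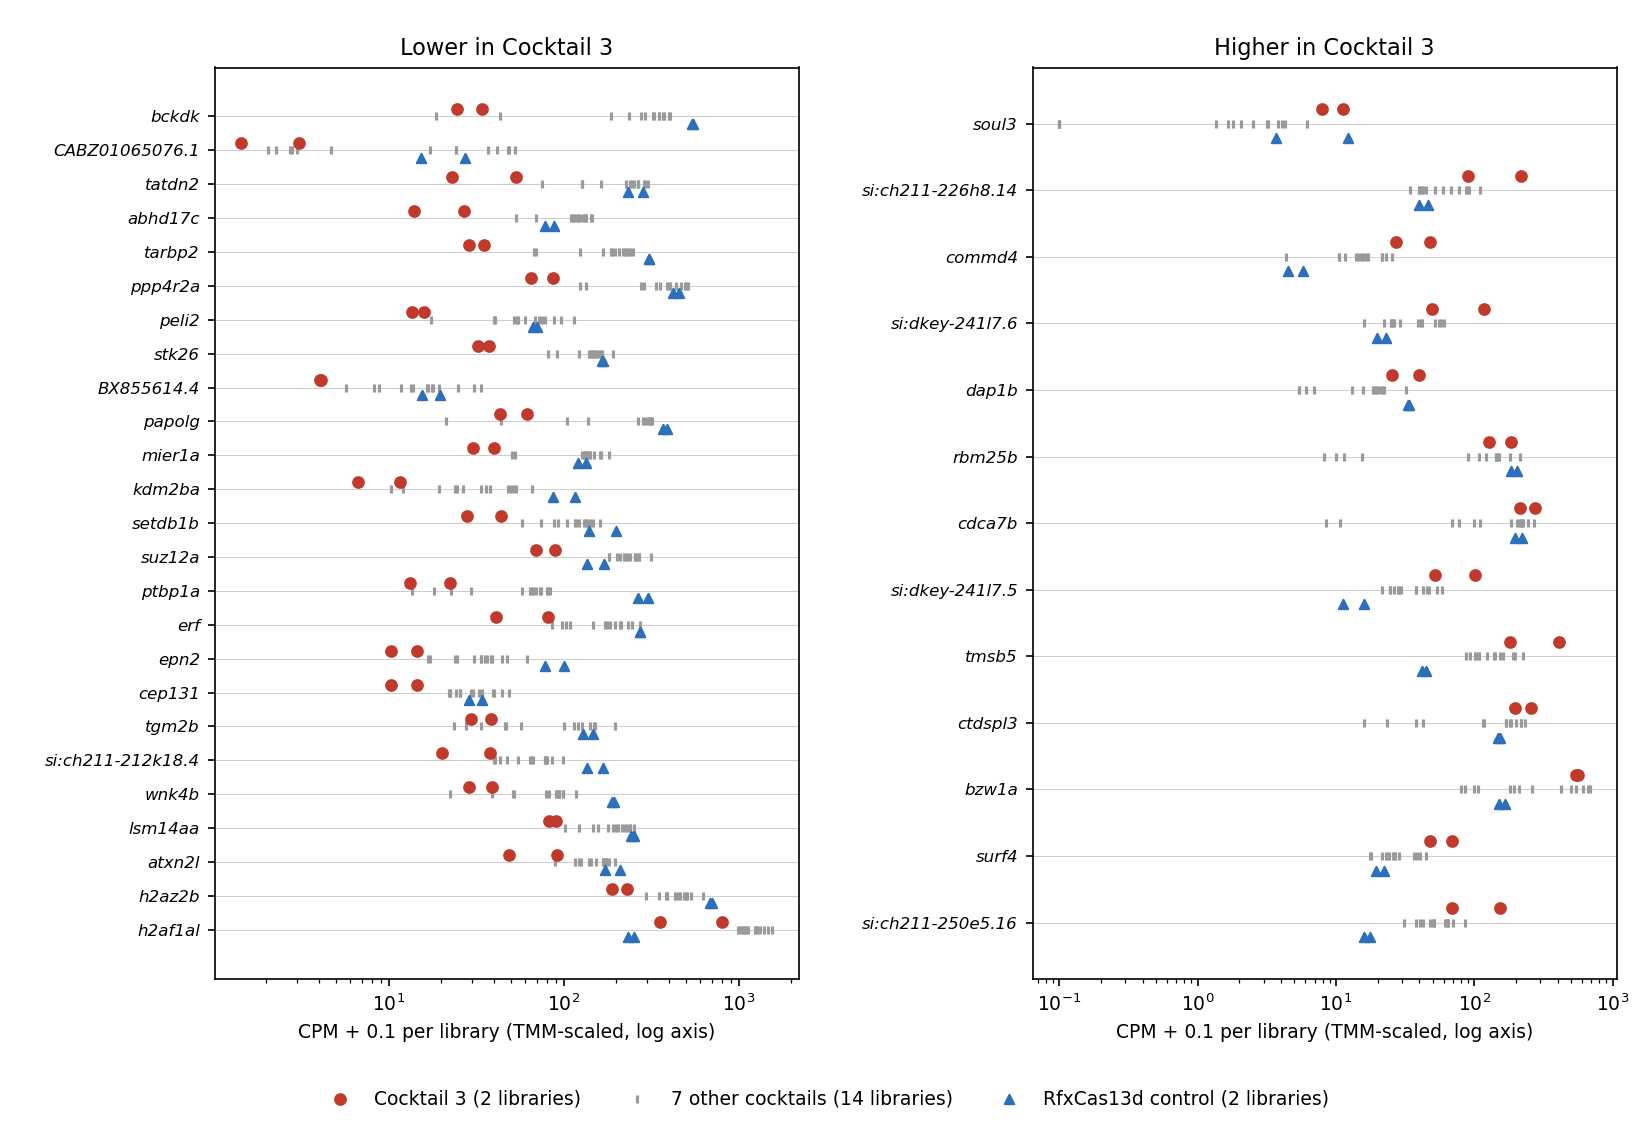
Each called gene has 1 row, with the level of every library in CPM plus 0.1 on a log axis: red circles for Cocktail 3, grey ticks for the 14 libraries of the other cocktails and blue triangles for the control. On the left the red circles of 17 of the 25 lower genes lie below every grey tick, and on the right those of 3 of the 13 higher genes lie above every one.

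The same genes were set against each cocktail singly, in comparisons that share the Cocktail 3 libraries. The 25 genes were picked as lower than the mean of these 7 cocktails, so counts above the share over all genes are partly built in. Of the 25 lower genes, 5 were lower against Cocktail 1, where 0.0413% of all genes tested were, and 7 against Cocktail 2, where 0.0482% were. The count was 14 against Cocktail 4 (0.11% of all genes), 20 against Cocktail 5 (0.4%), 23 against Cocktail 6 (0.703%), 24 against Cocktail 7 (0.627%) and 21 against Cocktail 8 (0.262%). The median log2 change of the 25 genes was -1.02 against Cocktail 1, -1.39 against Cocktail 2 and -1.28 against Cocktail 4, and between -2.06 and -1.81 against Cocktails 5 to 8. The genes lower against all 7 were abhd17c, tarbp2, stk26 and suz12a, and bckdk, ppp4r2a and mier1a were lower against 6. Over all genes tested, 6 were lower against Cocktail 1, whose libraries also lay far apart, and 7 against Cocktail 2. The 13 higher genes were picked in the same way on the higher side. Of them, 0 were higher against Cocktail 1 and 0 against Cocktail 2, where 3 and 1 of all genes tested were. The count was 3 against Cocktail 4, 6 against Cocktail 5, 8 against Cocktail 6, 7 against Cocktail 7 and 5 against Cocktail 8. In that order, 18, 19, 56, 74 and 20 of all genes tested were higher.

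The other cocktails had lists of their own in the same fit. Against the 7 cocktails other than itself, Cocktail 1 had 35 lower genes (0.241%), Cocktail 2 had 5 (0.0344%), Cocktail 4 had 27 (0.186%), Cocktail 5 had 10 (0.0689%), Cocktail 6 had 8 (0.0551%), Cocktail 7 had 28 (0.193%) and Cocktail 8 had 13 (0.0896%). The 25 of Cocktail 3 lay within that range. Of those 25 genes, 9 were also called lower in another cocktail. These were bckdk and tarbp2 in Cocktail 2, ppp4r2a, papolg and mier1a in Cocktail 1, kdm2ba in Cocktail 4, and CABZ01065076.1, ptbp1a and tgm2b in Cocktails 1 and 4. The other 16 were called lower in Cocktail 3 and in no other cocktail by this rule, and each comparison holds the remaining cocktails as its background. Some of them were near Cocktail 3 in another cocktail. The mean of wnk4b was 36.7 CPM in Cocktail 1 and 33.6 CPM in Cocktail 3 (log2 change -0.11 ± 0.31). That of epn2 was 16.9 CPM in Cocktail 4 and 12.3 CPM in Cocktail 3 (-0.45 ± 0.36).

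**Figure D3:**
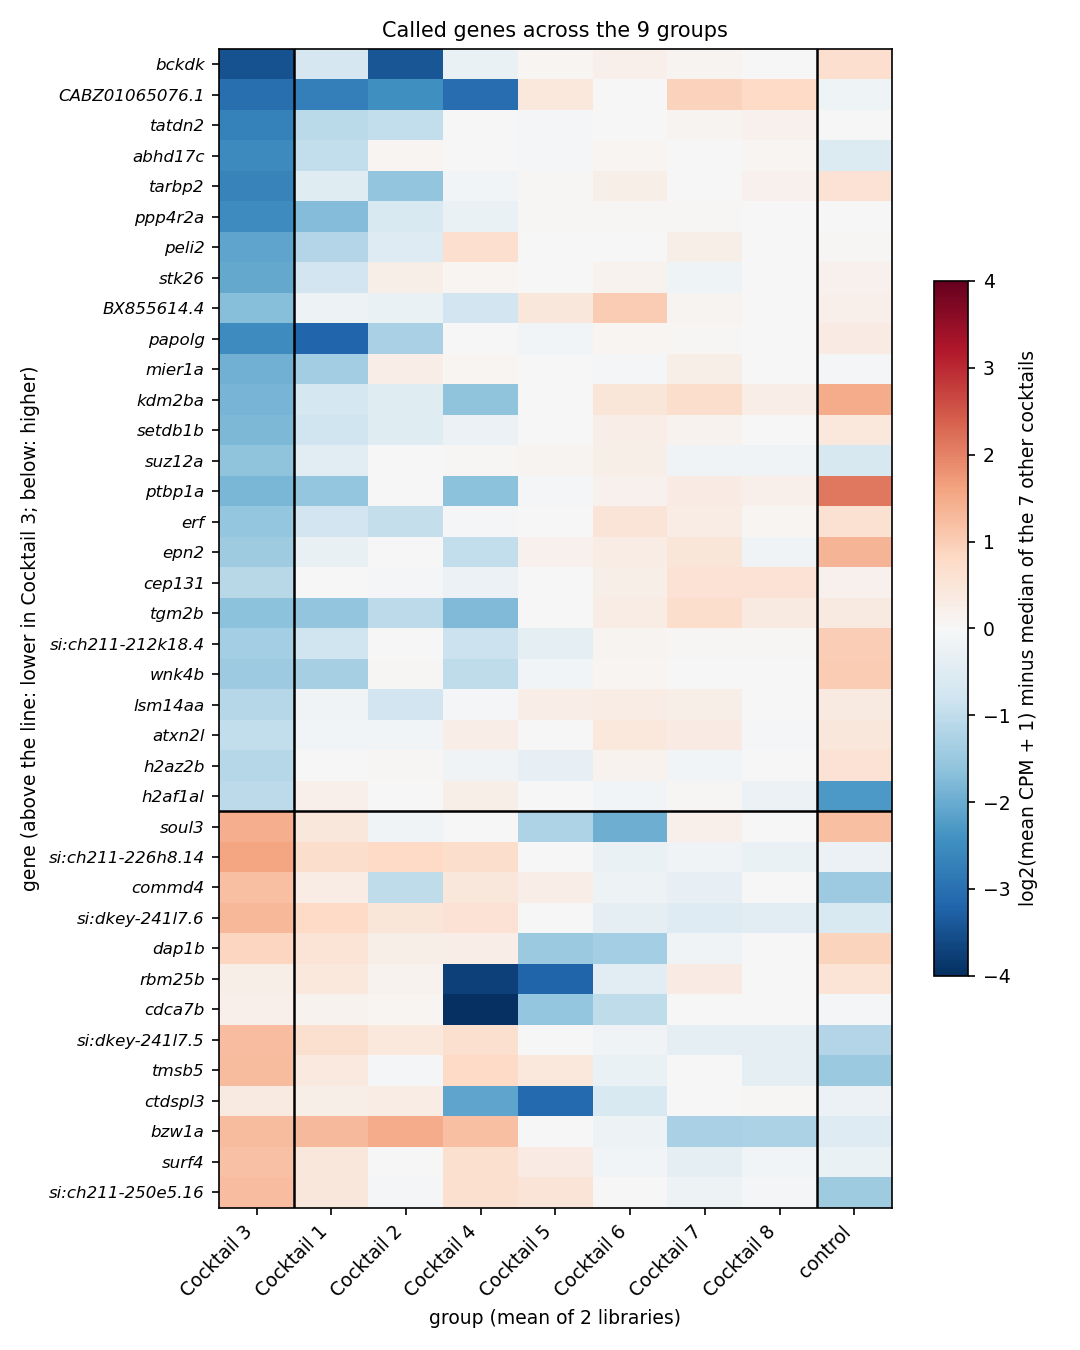
Colours give the log2 of the group mean CPM plus 1, minus the median of the same value over the 7 other cocktails, for each called gene (rows) in each group (columns, 2 libraries each). Lower genes stand above the line and are blue in the Cocktail 3 column, and bckdk is about as dark in Cocktail 2 and papolg in Cocktail 1.

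The 13 higher genes held fewer clear cases. For commd4, whose product has the COMM domain of endosomal sorting proteins, Cocktail 3 had 26.9 and 47.6 CPM, against 4.24, 15.3 and 25.4 CPM in the other cocktails and 4.38 and 5.72 CPM in the control (log2 change 1.32 ± 0.30, adjusted p = 0.0498). For surf4, a cargo receptor between endoplasmic reticulum and Golgi, Cocktail 3 had 47.4 and 68.3 CPM, against 17.4, 25.8 and 44.6 CPM in the other cocktails and 19.4 and 21.99 CPM in the control (1.08 ± 0.23, adjusted p = 0.0378). These were the 2 higher genes with both Cocktail 3 libraries above all 16 others. They kept their calls in 9 and 11 of 34 settings. With the 7 cocktails taken singly, commd4 was called against 0 of them and surf4 against 1. The SOUL haem-binding gene soul3 had 11.2 and 7.88 CPM in Cocktail 3, against 0, 2.195 and 6.08 CPM in the other cocktails and 12.2 and 3.61 CPM in the control (2.86 ± 0.63, adjusted p = 0.0477). It kept its call in 11 of 34 settings. Taken singly, soul3 was called only against Cocktail 6, where both libraries had 0 CPM (8.00 ± 1.65). Its log2 change was 3.94 against Cocktail 5 and 1.17 to 1.91 against the remaining cocktails. The value for Cocktail 6 enters the mean of the 7.

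Of the higher genes, 5 were called lower in some other cocktail, so that the low values of those groups entered the mean of the 7. By the same rule, rbm25b was also called higher in Cocktails 1, 2 and 7 and cdca7b in Cocktails 1 and 2. So were ctdspl3 in Cocktail 2 and bzw1a in Cocktails 1, 2 and 4, while dap1b was called higher in no other cocktail. The splicing factor gene rbm25b had 185 and 128 CPM in Cocktail 3, against 8.04, 132 and 214 CPM in the other cocktails and 205 and 184 CPM in the control, and means of 8.97 CPM in Cocktail 4 and 13.4 CPM in Cocktail 5. The gene cdca7b, of a family that works with a chromatin remodeller, had 213 and 275 CPM in Cocktail 3, against 8.36, 193 and 271 CPM in the other cocktails, with 9.49 CPM in Cocktail 4, and 196 and 219 CPM in the control. The phosphatase gene ctdspl3 had 197 and 257 CPM in Cocktail 3, against 15.9, 169 and 234 CPM in the other cocktails and 149 and 153 CPM in the control. Its low groups were Cocktail 5 at 19.6 CPM and Cocktail 4 at 40.0 CPM. The calls of rbm25b and ctdspl3 were lost without Cocktail 4 or without Cocktail 5, and that of cdca7b without Cocktail 4. As given above, each also lost its call without 1 of the Cocktail 3 libraries, which was replicate 1 for rbm25b and replicate 2 for ctdspl3 and cdca7b. For dap1b, a regulator of autophagy, Cocktail 3 had 25.3 and 39.7 CPM, against 5.31, 18.6 and 32.0 CPM in the other cocktails and 32.9 and 33.4 CPM in the control. It kept its call in 15 of 34 settings and lost it without Cocktail 5 or without Cocktail 6.

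The last of them was bzw1a, 1 of a pair of zebrafish genes for a protein that mimics the translation factor eIF5. It had 539 and 556 CPM in Cocktail 3, against 79.9, 236 and 690 CPM in the other cocktails and 166 and 150 CPM in the control (log2 change 1.103 ± 0.15, adjusted p = 3.29e-04; 1.80 ± 0.23 against the control). The group means fell into levels, with 557, 636 and 521 CPM in Cocktails 1, 2 and 4, 227 and 196 CPM in Cocktails 5 and 6, and 91.9 and 93.0 CPM in Cocktails 7 and 8. The call of bzw1a was lost without Cocktail 7 or without Cocktail 8. Its paralog bzw1b had 454 and 526 CPM in Cocktail 3, against 783, 1014 and 1119 CPM in the other cocktails and 1521 and 1658 CPM in the control. The change of bzw1b was -0.98 ± 0.14 (adjusted p = 3.29e-04), just under 2-fold, with both Cocktail 3 libraries the lowest of the 18. How the counting treated reads common to both paralogs is not stated in the sources at hand, so their values are uncertain to that extent.

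The other 5 higher genes were si:ch211-226h8.14, si:dkey-241l7.6, si:dkey-241l7.5, tmsb5 and the clone-named gene ENSDARG00000116290, with log2 changes of 1.36, 1.27, 1.14, 1.14 and 1.06. In all 5, the level in Cocktail 3 replicate 2 was above that in replicate 1, and only replicate 2 lay above all 14 libraries of the other cocktails. The thymosin gene tmsb5, whose product binds actin monomers, had 181 and 408 CPM in Cocktail 3, against 86.6, 131 and 225 CPM in the other cocktails and 41.9 and 44.3 CPM in the control. For si:ch211-226h8.14 the values were 89.8 and 216 CPM in Cocktail 3, against 34.2, 55.5 and 110.0 CPM in the other cocktails and 39.6 and 46.1 CPM in the control. For si:dkey-241l7.6 they were 49.3 and 118 CPM in Cocktail 3, against 15.8, 34.2 and 60.4 CPM in the other cocktails and 22.8 and 19.6 CPM in the control. These 3 genes, and ENSDARG00000116290 below, had a replicate 2 value more than 2 times that of replicate 1. For si:dkey-241l7.5 they were 51.9 and 101 CPM in Cocktail 3, against 21.4, 33.4 and 58.5 CPM in the other cocktails and 15.9 and 11.1 CPM in the control. For ENSDARG00000116290 they were 68.7 and 153 CPM in Cocktail 3, against 30.7, 51.1 and 85.9 CPM in the other cocktails and 17.5 and 15.97 CPM in the control, and its call held in 14 of 34 settings. The calls of tmsb5 and of the 4 clone-named genes were lost without Cocktail 3 replicate 2. Whether si:dkey-241l7.5 and si:dkey-241l7.6, which bear the name of 1 clone, share reads was not tested.

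Gene length differed between the called genes. The median relative length was 1.44 for the 25 lower genes and 0.629 for the 13 higher genes, on a scale where the median gene is 1. Cocktail 3 replicate 2 lay below replicate 1 in 17 of the 25 lower genes and above it in 11 of the 13 higher genes, and over all genes tested it lay below in 49.5%. In the fit with a length correction, 22 genes were lower and 11 higher among 11844 with a length, and 19 of those 22 and 6 of those 11 had been called in the uncorrected fit. Genes called with the correction and not without it included bzw1b (-1.099) and the cap-binding gene ncbp2 (-1.21) on the lower side, and usp1 (1.08), a deubiquitinase, and dnajc5ga (1.01), a co-chaperone, on the higher side, all at an adjusted p under 0.05 with no 2-fold change in the uncorrected fit.

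A list of partners and relatives of the called genes, written after those genes were known, was read for the same contrast. Of 67 listed genes 57 were tested, and 0 were called in either direction. At 0.172% and 0.0896% of all genes called, a count of 0 in 57 is near the background. At an unadjusted p under 0.05 there were 6 lower and 3 higher, beside 5.59% and 6.99% of all genes tested, and the list median was 0.02 log2 units. Beside suz12a, its paralog suz12b was at -0.16 ± 0.25 and the Polycomb partners ezh2 and eed at 0.09 ± 0.15 and 0.28 ± 0.15. Beside tarbp2, dicer1 was at -0.26 ± 0.21, and beside ppp4r2a the catalytic subunits ppp4ca and ppp4cb were at 0.10 ± 0.14 and 0.02 ± 0.12. The paralogs setdb1a (-0.09 ± 0.29), ptbp1b (-0.52 ± 0.16, adjusted p = 0.200) and h2az2a (-0.46 ± 0.17, adjusted p = 0.288) did not pass, nor did bckdha, a subunit of the enzyme that bckdk acts on (-0.55 ± 0.18, adjusted p = 0.221). The paralog ppp4r2b had 394 and 350 CPM in Cocktail 3 and 374 and 379 CPM in the control. Its lowest, median and highest values in the other cocktails were 51.2, 479 and 576 CPM. Cocktail 1 was the low group, at 95.1 and 51.2 CPM.

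Against the control alone, 1117 genes were lower in Cocktail 3 (7.7%) and 1674 higher (11.5%). The 7 other cocktails together had 938 lower genes (6.46%) and 1359 higher (9.36%) in the same fit, and both comparisons share the control libraries. The median log2 change of Cocktail 3 against the control over all genes tested was 0.09. Of the 25 genes lower than in the other cocktails, 23 were also lower than in the control (0.158% of all genes tested), and suz12a and h2af1al were not. Of the 13 higher genes, 8 were also higher than in the control (0.0551%). The other 5, soul3, dap1b, rbm25b, cdca7b and ctdspl3, had no call against it, with log2 changes between -0.31 and 0.59. The lower count was 618 without Cocktail 3 replicate 2. Without control replicates 1 and 2 in turn, the counts were 743 and 733 lower and 1046 and 1065 higher.

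**Figure D4:**
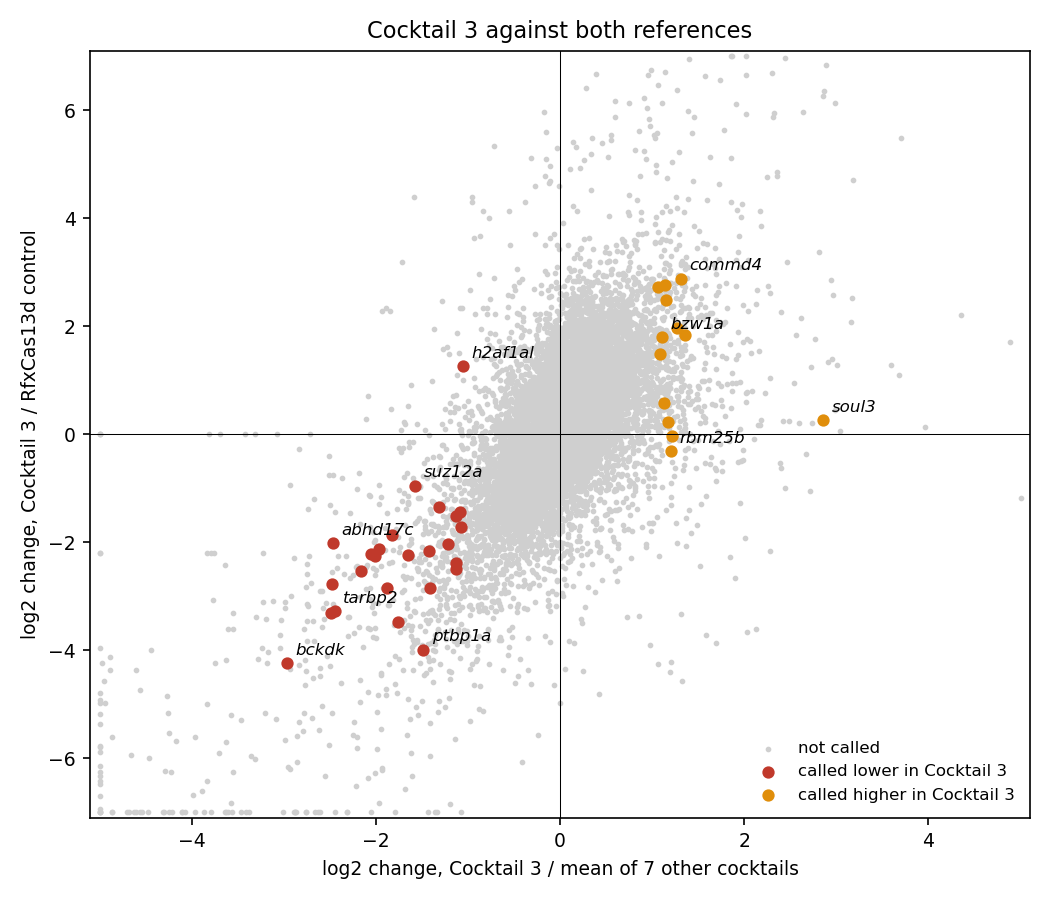
Each point is a gene, with its log2 change in Cocktail 3 against the mean of the 7 other cocktails (horizontal) and against the RfxCas13d control (vertical), and grey points beyond the axes are drawn at their edge. All but 1 of the red points (25 genes called lower against the other cocktails) lie below 0 on the vertical axis, the exception being h2af1al at 1.26, and the orange points (13 higher genes) span -0.31 to 2.88.

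Genes that mark embryonic layers were read in both comparisons, since whole embryos mix cell types. Against the control, 10 of 19 genes of the enveloping layer, the outermost epithelium, were lower in Cocktail 3 and none higher, with a list median of -3.25 log2 units (-2.16 in the other cocktails against the control). Over all genes tested, 7.7% were lower and 11.5% higher than in the control, with a median of 0.09. The keratin gene krt5 had 7.46 and 2.63 CPM in Cocktail 3, against 1.08, 20.5 and 53.7 CPM in the other cocktails and 391 and 444 CPM in the control (-6.32 ± 0.67 against the control, adjusted p = 1.99e-05). The plakin gene evpla had 1.33 and 0.656 CPM in Cocktail 3, against 0.270, 3.55 and 12.7 CPM in the other cocktails and 99.99 and 100.01 CPM in the control. Against the other cocktails no enveloping layer gene was called, and the median was -0.65. At an unadjusted p under 0.05, 5 were lower and 0 higher, beside 5.59% and 6.99% of all genes tested. The summed level of the list was 3036 and 4061 CPM in Cocktail 3, between 1634 and 5438 CPM in the other cocktails, and 10454 and 9650 CPM in the control. In whole embryos, fewer cells of a layer and less RNA per cell cannot be told apart.

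The yolk syncytial layer, a multinucleate layer at the yolk surface, had 6 of 8 genes lower than in the control (7.7% over all genes tested) and none higher (median -3.15). Its factor gene gata6 had 5.59 and 9.19 CPM in Cocktail 3, against 1.08, 31.4 and 55.1 CPM in the other cocktails and 237 and 203 CPM in the control. Its change was -4.90 ± 0.48 against the control and -1.65 ± 0.39 against the other cocktails (adjusted p = 0.0720, not called). Against the other cocktails the list had 0 calls and a median of -0.78. The calls in these lists changed when either Cocktail 1 library was left out. Relative to the mean of the 14 libraries, the yolk syncytial median was -4.31 in Cocktail 1 replicate 1 and -0.74 in its replicate 2. In that order, the enveloping layer medians were -2.72 and -0.09 and the early zygotic medians -5.35 and 0.30.

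Patterning genes gave smaller counts against the control. Of 16 mesendoderm and Nodal genes 6 were lower, among them gata5 (-3.08 ± 0.51), tbxta (-3.30 ± 0.87), the brachyury gene, and sox32 (-2.35 ± 0.60), an endoderm factor. The lists can share members, and gata5 also stands in the yolk syncytial layer list. Of 12 ventral (BMP and Wnt) genes 3 were lower, and of 14 dorsal organizer and FGF genes 4 were, beside 7.7% of all genes tested. In Cocktail 3 no gene of these 3 lists was higher than in the control, beside 11.5% of all genes tested. None was called against the other cocktails, with medians of -0.15, 0.000737 and -0.00373 log2 units. Cocktail 1 replicate 1 had medians of -3.74, -3.45 and -3.71 relative to the mean of the 14 libraries. That low library enters the mean, so these medians do not show equality with the other cocktails. Cocktail 3 replicate 1 lay above 4, 3 and 3 of the 14 libraries, and replicate 2 above 4, 8 and 8. Of 24 early zygotic genes, the 7 other cocktails together had 4 lower and 1 higher than in the control, beside 6.46% and 9.36% of all genes tested. In Cocktail 3, 3 of these 24 genes were lower and 1, otx1 (1.83 ± 0.28), higher than in the control, beside 7.7% and 11.5%. Without Cocktail 1 replicate 1, whose spread entered the fit, the lower counts against the control were 10 in the ventral, 8 in the dorsal and 10 in the zygotic list, the same as without its replicate 2. Over the alternatives the ventral count lay between 0 and 10, the dorsal count between 2 and 8 and the zygotic count between 0 and 10.

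Oocyte and germ plasm genes lay on the other side of the control. Of 22 genes 12 were higher and 0 lower in Cocktail 3, with a median of 1.14 log2 units, beside 11.5% higher and 7.7% lower over all genes tested. The 7 other cocktails together had 9 higher and 0 lower against the control, with a median of 0.81. The organiser of the Balbiani body, buc, had 1258 and 1017 CPM in Cocktail 3, against 633, 916 and 1302 CPM in the other cocktails and 191 and 171 CPM in the control. The deadenylation adaptor gene btg4 was at 2.71 ± 0.31 and dazl, a germ-line RNA-binding protein, at 1.84 ± 0.29. Against the other cocktails none was called (median 0.30; unadjusted p under 0.05 for 5 higher genes and 1 lower gene, beside 6.99% and 5.59% of all genes tested). Among genome activation factors, pou5f3 was lower than in the control (-1.56 ± 0.21) and sox19b higher (1.54 ± 0.20). Of these 14 genes 3 were called in each direction, beside 7.7% lower and 11.5% higher of all genes tested.

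**Figure D5:**
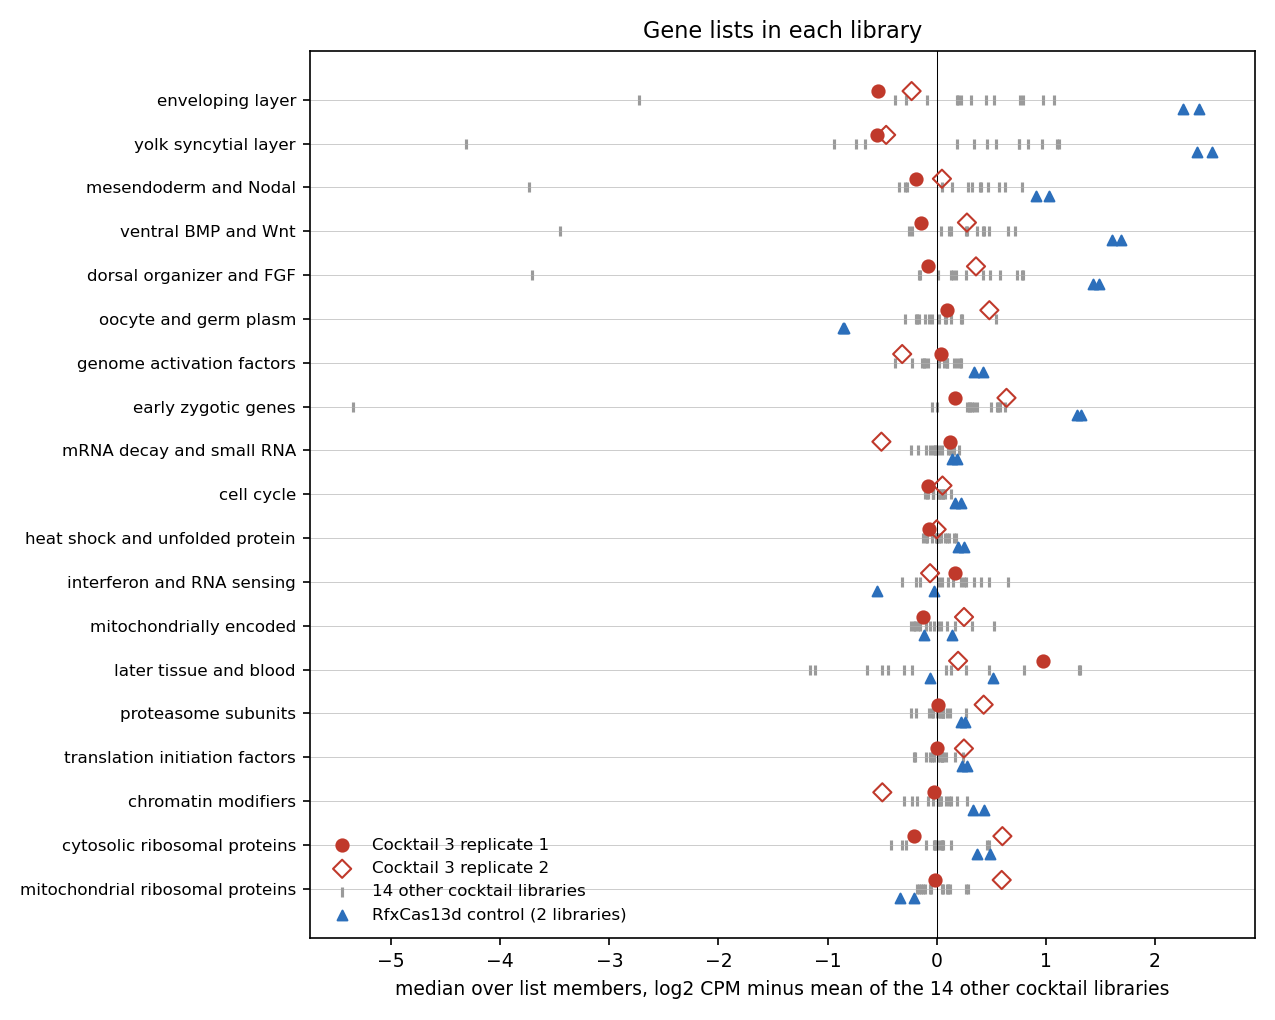
For each gene list (rows), points give the median over its members of log2 CPM minus the mean of the 14 libraries of the other cocktails, for Cocktail 3 replicate 1 (red circle), Cocktail 3 replicate 2 (open diamond), the 14 libraries themselves (grey ticks) and the control (blue triangles). The Cocktail 3 libraries lie at -0.54 and -0.23 in the enveloping layer list, where the controls lie at 2.26 and 2.41, and apart from each other in the ribosomal lists, at -0.21 and 0.60 for cytosolic and -0.01 and 0.60 for mitochondrial ribosomal proteins.

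The ribosomal protein lists stood at different levels in the 2 Cocktail 3 libraries. Mitochondrial ribosomal protein genes had 17 higher and 2 lower of 74 against the control (median 0.71), beside 11.5% and 7.7% of all genes tested. Against the other cocktails 0 were called, the unadjusted p was under 0.05 for 20 higher and 0 lower genes, beside 6.99% and 5.59% of all genes tested, and the median was 0.33. The list medians in the Cocktail 3 libraries were -0.01 in replicate 1 and 0.60 in replicate 2, and the median relative length of its members was 0.463. With the length correction the median was 0.17 over 71 members. The number higher than in the control was 7 without Cocktail 3 replicate 2, and 9 and 8 without control replicates 1 and 2. Cytosolic ribosomal protein genes, of a median relative length of 0.295, had 1 lower and 0 higher of 83 against the control, 0 calls against the other cocktails and a median of 0.25, which was 0.02 with the correction.

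In the list of mRNA decay and small RNA genes, 0 of 37 were called against the other cocktails. Over all genes tested, 0.172% were called lower and 0.0896% higher. The list had a median of -0.15 and a median relative length of 1.76. Its medians were 0.12 in Cocktail 3 replicate 1 and -0.51 in replicate 2. Against the control 5 were lower and 6 higher, beside 7.7% and 11.5% of all genes tested. The exonuclease gene xrn1 was lower than in the control (-1.83 ± 0.35) and had -1.095 ± 0.29 against the other cocktails (adjusted p = 0.113). The cell cycle, heat shock, proteasome, translation initiation, interferon and mitochondrially encoded lists had 0 calls against the other cocktails, beside the same 0.172% and 0.0896%. Their medians lay between -0.13 and 0.23. Of the interferon and RNA sensing list 9 of 22 genes were tested. Against the control 1 was lower and 1 higher, beside 7.7% and 11.5% of all genes tested. The list median against the control was 0.39 log2 units, and 0.66 in the other cocktails. The lower gene was adar, an RNA-editing enzyme (-1.58 ± 0.28). Of 22 markers of later tissues and blood only 2 had enough counts to be tested.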

How the data were processed

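Total RNA of whole zebrafish embryos was sequenced in 18 libraries made, per the labels' protocols, with the Nextera XT kit. Strand is not marked by it, so a gene and its antisense partner cannot be told apart. The authors deposited a table of raw read counts per gene for each library, and a second deposited table holds TPM values (scaled by gene length and library), a unit read from the values. The tool bcl2fastq 2.20 and the build danRer11 stand in the submitters' processing notes, and no source used here names the aligner, counter or annotation release. The 4 rows that name no gene held 22.6% to 55.5% of the reads and were left out.

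Groups came from the sample titles. Genes were tested with edgeR 4.0.16 under R 4.3.3: TMM scaling of the counts, a robust quasi-likelihood model and its F test, with 1 coefficient for each of 9 groups over all 18 libraries (common biological coefficient of variation 0.28) and edgeR's filter at a minimum count of 10. Cocktail 3 was compared with the unweighted mean of the 7 other cocktail coefficients, with each of them, and with the control. The SE of each log2 change was its absolute size divided by the square root of the F statistic of the same test. A call needed a 2-fold change and an adjusted p (Benjamini-Hochberg, all genes tested) under 0.05. Gene lists are described by counts and medians, without a set test. Members and lists were chosen with earlier results of these data known. By the naming rule, called genes were named first where both Cocktail 3 libraries lay beyond all 14 libraries and the higher group reached 5 CPM, up to 16 lower and 12 higher genes. The criteria were met by 17 lower genes, of which h2af1al had the smallest change and fell outside the limit, and by 3 higher genes. The other called genes were named after their values were seen.

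In simulated counts for this comparison, 25 genes at each size, 92% of genes lowered by 3 log2 units were called, 76% at 2 and at 1.5 units and 12% at 1 unit, and of raised genes all at 3 and 2, 76% at 1.5 and 28% at 1 unit, with 4 calls among 13772 unchanged genes. Each simulated gene had the same spread in all groups, and no length trend was added. The Cocktail 3 libraries differed from most groups in both respects, so these shares may not hold for the real counts. Length was read from the ratio of counts to TPM in genes with at least 30 counts and 5 TPM. Alternatives were size factors by RLE, no filter, no fold minimum, the replicate number as a block, other sets of libraries, 1 coefficient for the 14 libraries, DESeq2 1.42.0, limma 3.58.1 on TPM values (as log2 after adding 1, keeping genes that reach 1 TPM in 2 libraries), and each library left out in turn. The length correction and leaving out Cocktails 2 and 4 to 8 in turn were added after the data were seen. Sequences and coordinates were not used here.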

Additional observations from a re-analysis of the deposited data

Results flagged for a closer look

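The gene suz12a, for a core subunit of Polycomb repressive complex 2, was picked out from the genes called against the other cocktails. The rule asked for both Cocktail 3 libraries on 1 side of both controls and all 14 other cocktail libraries on the opposite side. Against the control, Cocktail 3 lay at -0.95 ± 0.20 log2 units (adjusted p = 0.00177) and the 7 other cocktails at 0.62 ± 0.16 (adjusted p = 0.00609), with 2 libraries and 14 libraries. The difference itself was tested in the same fit, as Cocktail 3 against the 7 other cocktails, and was -1.57 ± 0.17 (edgeR's quasi-likelihood test, Benjamini-Hochberg adjusted p = 1.67e-05). Both Cocktail 3 libraries lay below both control libraries, and all 14 libraries of the other cocktails lay above them. That order and the call were both required by the rule, so neither is further evidence. The change lay between -1.76 and -1.26 over the 34 alternatives, with a highest adjusted p of 0.00147.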

How the results depend on the processing

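Against the other cocktails (25 lower, 13 higher), the counts were 100 and 47 with no filter on low counts (24993 genes tested), 29 higher with no fold minimum, 5 lower and 0 higher with 1 coefficient for the 14 other libraries, and 59 and 20 with DESeq2. With only the 16 cocktail libraries 8 genes were higher. Without both libraries of Cocktail 1 the counts were 148 and 75, and without those of Cocktail 5 or of Cocktail 6, added after the data were seen, 7 genes were higher. Against both references (23 lower, 8 higher), they were 92 and 27 with no filter, 22 higher with no fold minimum, 139 and 55 without Cocktail 1, and 55 and 16 with DESeq2. The causes of these shifts were not tested. Leaving out each library in turn gave 14 to 381 lower and 3 to 171 higher genes against the other cocktails, with both ends set by a Cocktail 3 library, 13 to 310 lower and 2 to 140 higher against both references, and 618 to 1370 lower and 1046 to 1825 higher against the control. The difference in unmapped reads lay between -3.9 and -1.93 percentage points and did not pass.

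With the replicate number as a block, 20 genes were lower and 8 higher against the other cocktails and 5 higher against both references. Deviations of same-numbered libraries correlated at -0.124 to 0.125 over 36 pairs of groups, above 0.1 in 1. Whether libraries of the same number share a clutch or an injection was not tested. None of the 38 called genes changed sign in any alternative, but the balance of calls turned without Cocktail 1 replicate 2 (43 lower, 88 higher against the other cocktails) and with only the 4 libraries of Cocktail 3 and the control (1321 lower, 1271 higher against the control). With 1 library left out of a pair, the lone library is assumed to vary like the other groups. Changes of 1 log2 unit were rarely called in simulated counts (12% at -1 and 28% at 1), where the estimate also had to reach 2-fold. An uncalled gene is therefore not shown to be equal.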
